A study of Mus musculus with 8 samples.

Results

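DNA methylation was followed at 3 mouse loci, Fn1, Aldh1l2 and Mir219a-2, in kidneys with and without experimental injury. The loci were taken as intervals of the mm9 genome that hold each gene with some sequence on either side: chromosome 1 from 71627 to 71705 kb for Fn1, chromosome 10 from 82945 to 83002 kb for Aldh1l2, and chromosome 2 from 29690 to 29712 kb for Mir219a-2. Of the 375 CpG positions listed there in any library, 169 had at least 10 reads in every library and were kept, 85 at Fn1, 17 at Aldh1l2 and 67 at Mir219a-2. In the whole genome 976938 of 2578279 listed positions passed the same minimum. Kept positions no more than 500 bp apart were joined into clusters, which gave 17 clusters at the 3 loci, 11 at Fn1, 4 at Aldh1l2 and 2 at Mir219a-2, among 120200 in the genome.

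The method was reduced representation bisulfite sequencing (RRBS), in which MspI cuts DNA at CCGG and bisulfite turns unmethylated cytosines into thymines in the reads. All 8 libraries were made from kidney (cortex with outer medulla) of male, wild type C57BL/6J mice, whose age the labels do not give. Unilateral ureteral obstruction (UUO), in which the left ureter was tied and cut, was sampled at 7 days in 2 libraries. Another 2 libraries came from mice with UUO at 7 days that received 5AZA, an inhibitor of DNA methylation, in saline by intraperitoneal injection at 1 mg per kg per day; the labels do not say whether the other obstructed mice received saline. Bilateral ischemia, a clamp on both renal pedicles for 25 minutes, was represented by a library taken 1 week and another taken 1 month after blood flow had returned, and each surgery had its own sham-operated library. The tissue is whole kidney cortex and outer medulla, so methylation within a cell type and a change in the mixture of cell types cannot be told apart. The labels do not say that 2 libraries of a group came from separate mice, so SDs and p-values measure only the spread between these libraries.

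The libraries ranged from 57853745 to 86411736 reads counted at CpGs, and the median depth of a listed position ranged from 33 to 48. RRBS fragment ends are filled in with a nucleotide mix that, in this protocol, held methylated dCTP, so CpGs at fragment edges can read as methylated whatever their state in the tissue. Edges were located by jumps in read depth, with the CpGs on both sides of a jump counted as edges. A CpG without a neighbour within 250 bp on a side was also counted as an edge. The rule can therefore take CpGs inside fragments for edges, and leaving edges out removes those too. Of the 169 positions 113 were counted as edges and 56 as inside fragments, against 58.0% edges in the genome. Over the genome, edge positions averaged between 60.4% and 63.1% methylation and inside positions between 20.4% and 22.7% in the 8 libraries. Since CpGs without near neighbours count as edges, the classes can also differ in CpG density. This gap is therefore not a measure of the effect of the fill-in. Levels below are methylated reads as a share of all reads at the positions of a cluster. Differences are in percentage points between means of library levels. Read numbers of a cluster are sums over its CpGs, so a read is counted at each CpG it covers.

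The series title links these 3 genes to kidney fibrosis and asks, in effect, whether Mir219a-2 gains methylation in injury. Fn1 encodes fibronectin, a glycoprotein of the extracellular matrix that accumulates in fibrotic tissue. Aldh1l2 encodes a mitochondrial enzyme of folate metabolism that oxidises 10-formyltetrahydrofolate and makes NADPH, which in turn keeps glutathione reduced. Mir219a-2 is 1 of the genes for the microRNA miR-219a-5p, and a microRNA binds messenger RNAs chiefly through its seed near the 5′ end and lowers their output. Methylation of CpG-dense promoters generally goes with silence of the gene, and most CpGs outside such regions are methylated in somatic tissue. 5AZA is built into DNA, traps the methyltransferases, and is used to lower methylation.

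The Mir219a-2 hairpin is shown because its CpGs could be followed 1 by 1. In RefSeq (GRCm38.p6) the gene lies within the span of Cercam, and Mir219b overlaps it on the opposite strand. The hairpin was placed on the deposited mm9 positions by the spacing of its CpGs alone, without conversion between builds. Of 99 placements on chromosome 2 with at least 5 matching positions, 1 had no measured position off a CpG of the hairpin, at 29701151 to 29701247 on the minus strand. In the hairpin, capitals mark the 6 CpGs, of which 5 were measured, while the CpG at base 44 was listed in no library. In the mature microRNAs, capitals mark the seed, bases 2 to 8. The CpG at base 31 of the hairpin is at base 13 of miR-219a-5p, outside the seed, and no CpG lies in the seed. The microRNAs from the opposite strand have other seeds than miR-219a-5p.
Mir219a-2 hairpin: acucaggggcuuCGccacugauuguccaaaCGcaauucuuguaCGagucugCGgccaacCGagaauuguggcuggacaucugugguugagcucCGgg
mmu-miR-219a-5p: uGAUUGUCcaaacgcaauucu
mmu-miR-219b-5p: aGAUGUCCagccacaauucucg
mmu-miR-219b-3p: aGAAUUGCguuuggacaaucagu

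The cluster that holds the hairpin, Mir219a-2 cluster 1, ran from 29700893 to 29702165 on chromosome 2 with 64 CpGs, 16 of them inside fragments, and 2468 to 4007 reads in each library. It was partly methylated in every library. UUO replicate 1 stood at 66.7% and UUO replicate 2 at 70.1%, and the UUO sham at 64.7%. With 5AZA the levels were 61.0% and 60.9%. After ischemia the level was 63.0% at 1 week and 65.2% at 1 month, with 60.02% in the ischemia sham. Both UUO libraries were thus above the sham, and both 5AZA libraries were below the UUO libraries and below that sham. The exact binomial 95% interval was 65.2% to 68.1% for the lower UUO library and 62.9% to 66.5% for the UUO sham, and these overlapped.

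UUO averaged 68.4% ± 2.42 (SD, n = 2), which was 3.66 points above its sham (SE 1.53). This did not pass the quasi-binomial test over all clusters (adjusted p = 0.743, Benjamini-Hochberg, limma-moderated dispersion; unadjusted p = 0.0407). The UUO sham is a single library, so the SE of 1.53 assumes that it varies like the pairs. At this cluster the UUO sham and the ischemia sham differed by 4.69 points, more than UUO from its sham. With 5AZA the mean was 60.9% ± 0.11 (SD, n = 2), a difference of -7.43 points from UUO (SE 1.25). The adjusted p of that difference in the limma-moderated test was 0.0511, and its size was under the 10 points required for a call. By p-value it ranked 286 of 120200 clusters, whose median difference was -2.80 points. That rank also depends on depth, since this cluster held 64 CpGs against a median of 4 per cluster. The adjusted p lay on either side of 0.05 with other settings, from 0.000906 with the replicate block to 0.335 with limma on log2 ratios, while the difference stayed between -9.14 and -5.72 points. Against the UUO sham, the difference with 5AZA was -3.77 points (SE 1.64), with an adjusted p of 0.467 in the limma-moderated test.

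After ischemia, the same cluster was 3.03 points above the sham at 1 week and 5.21 points above it at 1 month. On the read counts of these single libraries, Fisher's exact test gave adjusted p-values of 0.374 and 0.00493. Both differences were under the 25 points required. In that test a read counts once for each CpG it covers, so its p-values can be too small. That test compares 2 libraries and not 2 conditions, and the quasi-binomial model, which assumes that single libraries vary like the pairs, gave an adjusted p of 1.0 at 1 month (limma-moderated). The 2 sham libraries themselves differed by 4.69 points. With both shams summed, the 1 week library was 0.66 points higher and the 1 month library 2.84 points higher (Fisher's exact test, adjusted p = 0.937 and 0.118).

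**Figure D1:**
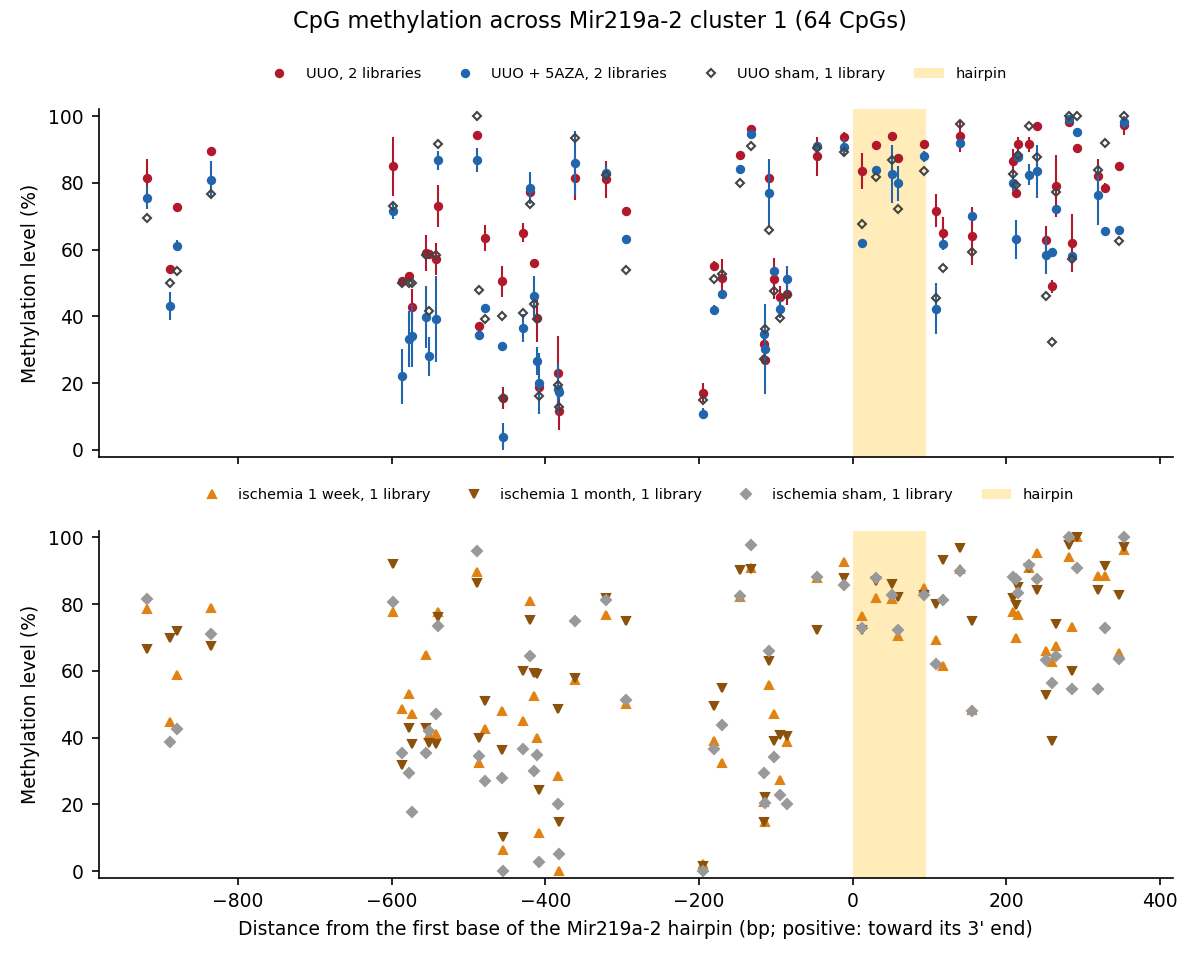
Methylation level (%) of each of the 64 CpGs of Mir219a-2 cluster 1 against the distance in bp from the first base of the hairpin (shaded), with points for means of 2 libraries, vertical lines for their range, and single points for single libraries. In the upper panel the UUO points in the hairpin lie above the sham and 5AZA points, while on the 5′ side levels spread from near 0 to near 100%.

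The CpGs of this cluster differed widely among themselves, with means over the 8 libraries from 8.87% to 98.3%. By mean level 7 were below 30%, 18 between 30% and 50%, and 39 at 50% or more. Both UUO libraries were above the UUO sham at 33 of 64 CpGs and both below it at 11, where the whole genome had 32.6% and 24.8% of positions in these classes. Among positions of intermediate methylation, 30% to 90% in the ischemia sham, the genome had 42.2% and 26.4%. Both 5AZA libraries were below both UUO libraries at 35 of 64 and above both at 3, against 26.0% and 8.64% of all positions and 34.2% and 8.78% of intermediate positions. Neighbouring CpGs share reads, so these counts are a description.

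Taken CpG by CpG, the difference between UUO and sham ran from -18.68 to 26.25 points with a median of 3.79. The 7 CpGs with an unadjusted p below 0.05 in the limma-moderated test were all higher in UUO. For 5AZA against UUO the range was -30.75 to 13.75 with a median of -6.06, and the 13 CpGs with an unadjusted p below 0.05 were all lower. None of the 169 positions was called in either comparison, where the background was 0.00512% and 0.0327% of positions. The smallest adjusted p at Mir219a-2 was 0.936 for UUO and 0.14 for 5AZA (limma-moderated). Unadjusted p-values below 0.05 were found at 4.60% and 8.66% of all positions in the genome, in either direction. Of all clusters of the genome, 54.9% were higher in UUO than in sham, and 79.4% were lower with 5AZA than in UUO. Since neighbouring CpGs share reads, the shared direction of the 7 and of the 13 CpGs is a description.

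Within the hairpin printed above, all 5 measured CpGs were higher in both UUO libraries than in the sham, and lower in both 5AZA libraries than in both UUO libraries. The first pattern held at 32.6% of all positions in the genome and 42.2% of intermediate ones, and the second at 26.0% and 34.2%. Neighbouring CpGs among these 5 share reads, and both patterns use the same UUO libraries, so they are not separate observations. Summed over the hairpin, the level was 90.5% and 88.8% in UUO and 78.4% in the UUO sham. The exact 95% interval of the sham, 73.8% to 82.6%, did not reach the UUO values. That interval is too narrow, since it counts a shared read at each CpG. With 5AZA the level was 79.4% and 80.5%. The ischemia libraries stood at 79.3% at 1 week and 82.1% at 1 month, and their sham at 80.0%. The 2 UUO libraries were therefore the highest of the 8 and the other 6 lay between 78.4% and 82.1%. How often this order occurs over the genome was not computed. UUO exceeded its sham by 11.23 points and the difference of 5AZA from UUO was -9.70 points. Of the 5 measured CpGs, 3 were counted as fragment edges. At the inside ones, bases 31 and 52, UUO exceeded its sham by 9.59 and 7.24 points. The sums over this stretch were chosen after the hairpin had been placed and have no test.

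The CpG at base 13 of the hairpin, ahead of the mature microRNA, had the widest separation. It read 89.0% and 78.0% in UUO, 67.6% in the UUO sham, and 61.5% and 62.3% with 5AZA. The ischemia libraries gave 76.5% at 1 week and 72.2% at 1 month, with 72.7% in the sham. Depth there was 52 to 115 reads, and the position was counted as a fragment edge. UUO was 15.92 points above the sham (unadjusted p = 0.0196) and the difference of 5AZA from UUO was -21.63 points (unadjusted p = 0.000756, both limma-moderated), and neither held after adjustment over all positions.

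The CpG at base 31, within the mature sequence, was inside a fragment and had the same number of reads as base 13 in every library. It read 92.3% and 90.2% in UUO and 81.7% in the UUO sham, and 82.7% and 84.9% with 5AZA. The ischemia sham was at 87.9%, between 81.7% at 1 week and 87.0% at 1 month on one side and UUO on the other. UUO exceeded its sham by 9.59 points (unadjusted p = 0.0696, limma-moderated). The sham of the other surgery was thus nearer to UUO than to the UUO sham at this CpG.

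The next pair, at bases 52 and 60 downstream of the mature microRNA, had near equal depths and so largely the same reads. Base 52 was inside a fragment, and base 60 was counted as a fragment edge. Base 52 read 94.2% and 93.8% in UUO, 86.8% in the UUO sham, and 74.1% and 91.5% with 5AZA. Base 60 read 86.2% and 88.8% in UUO, 72.1% in the sham, and 85.2% and 74.5% with 5AZA. At each of them 1 5AZA library lay close to UUO and the other far below, and it was not the same library. The last CpG, at base 94, falls in an MspI site and was a fragment edge, with 90.8% and 92.6% in UUO, 83.5% in the sham, and 86.4% and 89.5% with 5AZA.

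**Figure D2:**
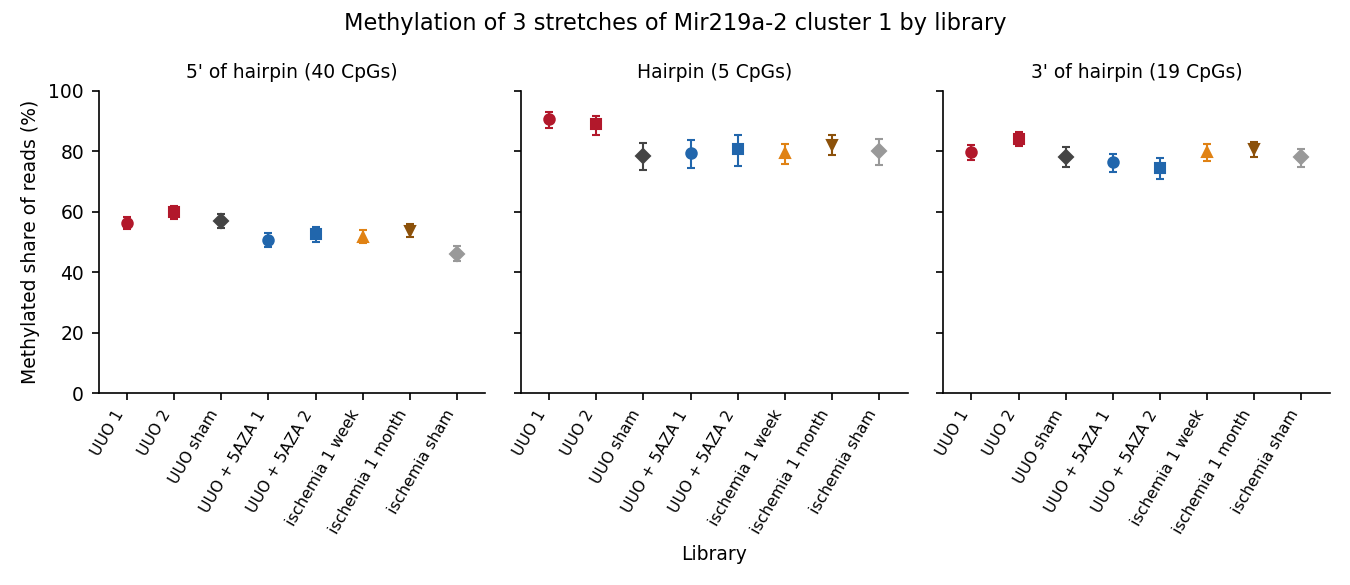
Methylated share of reads (%) in each of the 8 libraries over the CpGs 5′ of the hairpin, in the hairpin and 3′ of it. Bars are exact binomial 95% intervals, which treat each read at each CpG as separate and so understate counting error. The UUO libraries are the highest in the hairpin at 90.5% and 88.8%, and the ischemia sham is the lowest library on the 5′ side at 46.0%.

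The flanks differed from the hairpin in which libraries were high or low. On the 5′ side of the hairpin, which on the minus strand means higher coordinates, 40 CpGs gave 56.3% and 59.7% in UUO and 56.8% in the UUO sham, so that UUO exceeded its sham by 1.23 points. The 5AZA libraries were lower at 50.6% and 52.5%, a difference of -6.49 points from UUO. In the ischemia series this stretch read 51.7% at 1 week, 53.7% at 1 month and 46.0% in the sham, 5.71 and 7.70 points above that sham. The 2 shams differed by 10.76 points here, more than any of these injury differences. On the 3′ side, 19 CpGs gave 79.5% and 84.1% in UUO, 78.2% in the sham, and 76.2% and 74.3% with 5AZA. That side was nearly level across the ischemia libraries, at 79.6%, 80.6% and 77.9% in the sham.

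With edges left out, the 16 inside CpGs of the cluster read 55.2% and 60.6% in UUO and 55.9% in the UUO sham, and 51.0% and 53.1% with 5AZA. UUO replicate 1 then lay below the sham and the 2 groups overlapped, while 5AZA stayed below both UUO libraries. The ischemia libraries read 52.2% at 1 week, 56.2% at 1 month and 46.4% in the sham. After this filter the clusters gave 2.05 points for UUO against sham (adjusted p = 0.953), -5.87 points for 5AZA against UUO (adjusted p = 0.213, both limma-moderated), and 9.86 points for 1 month of reperfusion (Fisher's exact test, adjusted p = 0.00843).

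The second cluster of the locus, Mir219a-2 cluster 2, held 3 CpGs from 29710997 to 29711172, all fragment edges, with 108 to 225 reads. It was highly methylated, with 93.9% and 92.6% in UUO, 87.9% in the UUO sham, and 87.7% and 88.3% with 5AZA. The ischemia libraries read 92.4% at 1 week, 93.7% at 1 month and 92.2% in the sham. UUO exceeded its sham by 5.29 points (SE 3.33, adjusted p = 0.831) and the difference of 5AZA from UUO was -5.21 points (SE 2.50, adjusted p = 0.250, both limma-moderated). As in cluster 1, both UUO libraries were above the sham and above both 5AZA libraries, and neither difference passed the test.

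At Fn1, the fibronectin gene, a CpG-dense cluster had low methylation, from 15.7% to 19.1% over the libraries, and the 10 other clusters were at 73.3% or more in every library. Fn1 cluster 11, from 71699428 to 71699899 on chromosome 1, had 34 CpGs and 1485 to 2759 reads. It read 18.8% and 16.9% in UUO, 17.4% in the UUO sham, and 19.1% and 17.6% with 5AZA. The ischemia libraries read 15.7% at 1 week, 18.2% at 1 month and 16.1% in the sham. The UUO sham lay between both UUO libraries, and the UUO and 5AZA pairs overlapped. UUO was 0.49 points above sham (SE 1.39, adjusted p = 0.970) and 5AZA 0.49 points above UUO (SE 1.08, adjusted p = 0.858, both limma-moderated). The 1 month library was 2.04 points above the ischemia sham (Fisher's exact test, adjusted p = 0.636; unadjusted p = 0.0781).

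The methylated CpGs of that cluster were fragment edges. Of the 34 CpGs, 25 averaged below 30%, the highest of them at 16.2%, and the other 9 averaged 60.4% to 88.1%. All 9 were fragment edges, and all 13 inside CpGs were low. The other 12 of the 21 edge CpGs averaged no more than 6.36%, so most edges were low too. Over the inside CpGs the 8 libraries read between 1.12% in the ischemia sham and 3.45% in 5AZA replicate 1. UUO stood at 2.80% and 1.90% and its sham at 2.12%, with the sham between both UUO libraries. Both 5AZA libraries, at 3.45% and 2.86%, were above both UUO libraries, a pattern found in 5.09% of all clusters with edges kept. The ischemia libraries, at 1.82% and 1.55%, were above their sham, as in 28.5%. Much of both gaps lay at 1 inside CpG, at 71699812, which averaged 16.2% against a median of 1.35% for the 13. It read 27.6% and 20.5% with 5AZA and 16.4% and 10.9% in UUO. Its ischemia libraries read 21.7% at 1 week, 14.3% at 1 month and 5.56% in the sham. Levels without this CpG were not computed. With edges left out, the differences were 0.80 points for 5AZA against UUO (adjusted p = 0.559, limma-moderated), and 0.70 and 0.43 points at 1 week and 1 month (Fisher's exact test, adjusted p = 0.861 and 0.942), none past the test.

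**Figure D3:**
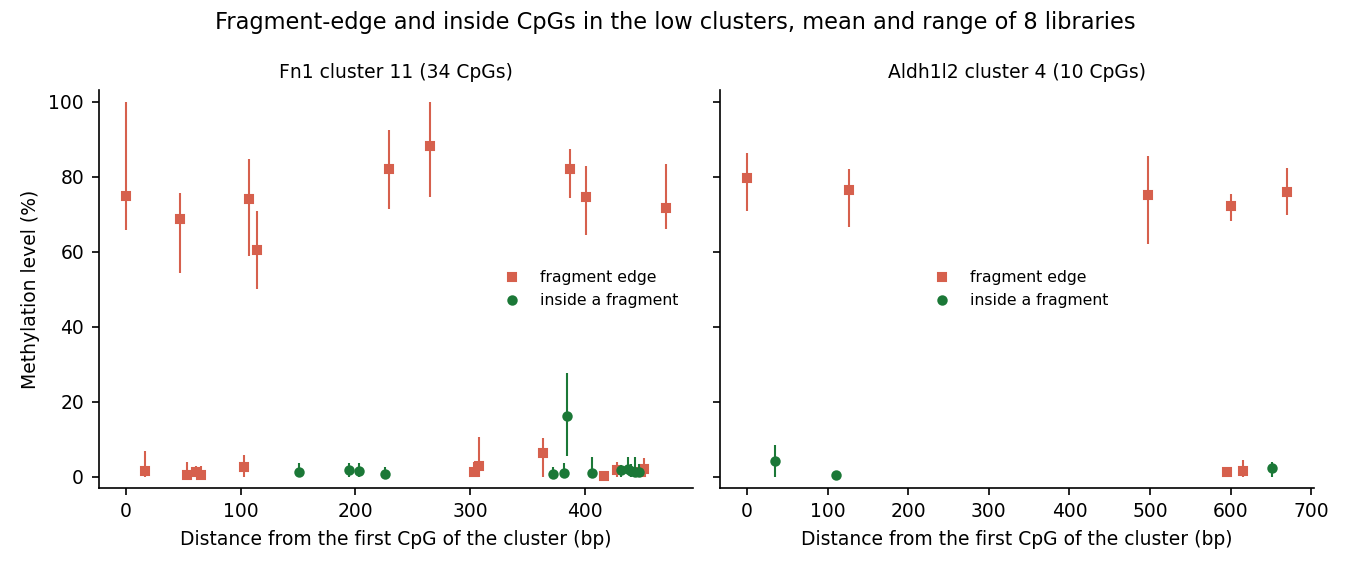
Methylation level (%) of each CpG of Fn1 cluster 11 and Aldh1l2 cluster 4 against the distance in bp from the first CpG of the cluster, with points for the mean and lines for the range of the 8 libraries, and colour for fragment edge or inside. The CpGs above 60% are all fragment edges, other edges are low, and the inside CpGs all average below 17%.

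The other 10 Fn1 clusters held 51 CpGs, with levels from 73.3% to 98.8% and 39 to 1241 reads per library. Of the larger ones, Fn1 cluster 6 (71675818 to 71676053, 10 CpGs) read 92.3% and 95.3% in UUO, 96.4% in the UUO sham, and 92.1% and 93.7% with 5AZA, with 94.7%, 94.8% and 94.96% at 1 week, 1 month and in the ischemia sham. Both UUO libraries lay below the sham, with a mean difference of -2.60 points (SE 1.24, adjusted p = 0.785, limma-moderated). Fn1 cluster 3 (71656066 to 71656168, 10 CpGs) read 95.6% and 97.5% in UUO and 95.6% in the UUO sham. There the 5AZA libraries parted, at 95.6% and 90%, and their mean differed from UUO by -3.74 points (SE 1.65, adjusted p = 0.212, limma-moderated). Its ischemia libraries read 97.6% at 1 week, 97.7% at 1 month and 97.2% in the sham.

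Fn1 cluster 2 (71650206 to 71650375, 7 CpGs) read 94.2% and 93.3% in UUO and 96.2% in the sham, and 93.4% and 88.3% with 5AZA. Its ischemia libraries read 95.8% at 1 week, 97.2% at 1 month and 93.8% in the sham. Fn1 cluster 8 (71692121 to 71692253, 5 CpGs) read 92.7% and 91.8% in UUO, 92.9% in the sham, and 92.1% and 86.1% with 5AZA, with 92.4%, 93.3% and 90.6% in the ischemia series. In clusters 2, 3 and 8 the second 5AZA library was the lowest of the 8, as it was in Fn1 clusters 1, 7, 9 and 10. Over the genome that library also had the lowest mean at inside positions (20.45%). At edge positions the 1 week library was lower (60.38% against 60.78%). The share of all clusters with this library lowest was not computed. Fn1 cluster 5 (71673833 to 71674038, 5 CpGs) had its lowest value, 88.9%, in UUO replicate 1, and 96.3% in the other UUO library, so this pair spanned the UUO sham at 94.99%, the 5AZA libraries at 93.0% and 90.8% and the 1 week, 1 month and ischemia sham libraries at 93.5%, 94.5% and 93.2%.

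The widest difference from sham among the 17 clusters was at Fn1 cluster 10, which is named here after its values were seen. It has 2 CpGs, at 71697557 and 71697654, both fragment edges, with 60 to 142 reads. It read 88.7% and 95.4% in UUO, 78.6% in the UUO sham, and 88.0% and 73.3% with 5AZA. The ischemia libraries and their sham lay close together at 82.4%, 83.3% and 82.9%. UUO was 13.48 points above its sham (SE 6.24, adjusted p = 0.746), and the difference of 5AZA from UUO was -11.38 points (SE 5.24, adjusted p = 0.270, both limma-moderated). The 2 5AZA libraries differed from each other by 14.67 points.

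Aldh1l2, the mitochondrial folate enzyme, had 1 cluster of intermediate level and 3 highly methylated ones. Aldh1l2 cluster 4, from 82996043 to 82996714 on chromosome 10, held 10 CpGs with 456 to 1047 reads. It read 43.2% and 43.9% in UUO, 42.8% in the UUO sham, and 44.1% and 43.3% with 5AZA, with 42.1% at 1 week, 41.2% at 1 month and 42.6% in the ischemia sham. The 8 libraries spanned 41.2% to 44.1%, and UUO differed from its sham by 0.71 points (SE 2.66, adjusted p = 0.993, limma-moderated). As at Fn1, 5 CpGs averaged no more than 4.04% while 5 fragment edges averaged 72.3% to 79.6%. The other 2 of the 7 edge CpGs were low, at no more than 1.54%. The 3 inside CpGs read between 0.00% and 3.87% over the libraries. UUO replicate 2 was the library at 0 of 145 reads, which allows a level of up to 2.07% from counting alone, or more where its CpGs share reads.

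Aldh1l2 cluster 3 (82978843 to 82978948, 3 CpGs) read 92.7% and 97.6% in UUO, 91.6% in the UUO sham, and 90.1% and 92.0% with 5AZA, with 94.2%, 93.4% and 95.5% at 1 week, 1 month and in the ischemia sham. UUO was 3.60 points above its sham (SE 3.09, adjusted p = 0.889) and the difference of 5AZA from UUO was -4.13 points (SE 2.80, adjusted p = 0.462, both limma-moderated). The remaining 2 clusters of this locus had 2 CpGs each. The 3 highly methylated Aldh1l2 clusters ranged from 87.9% to 100% with as few as 39 reads in a library.

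**Figure D4:**
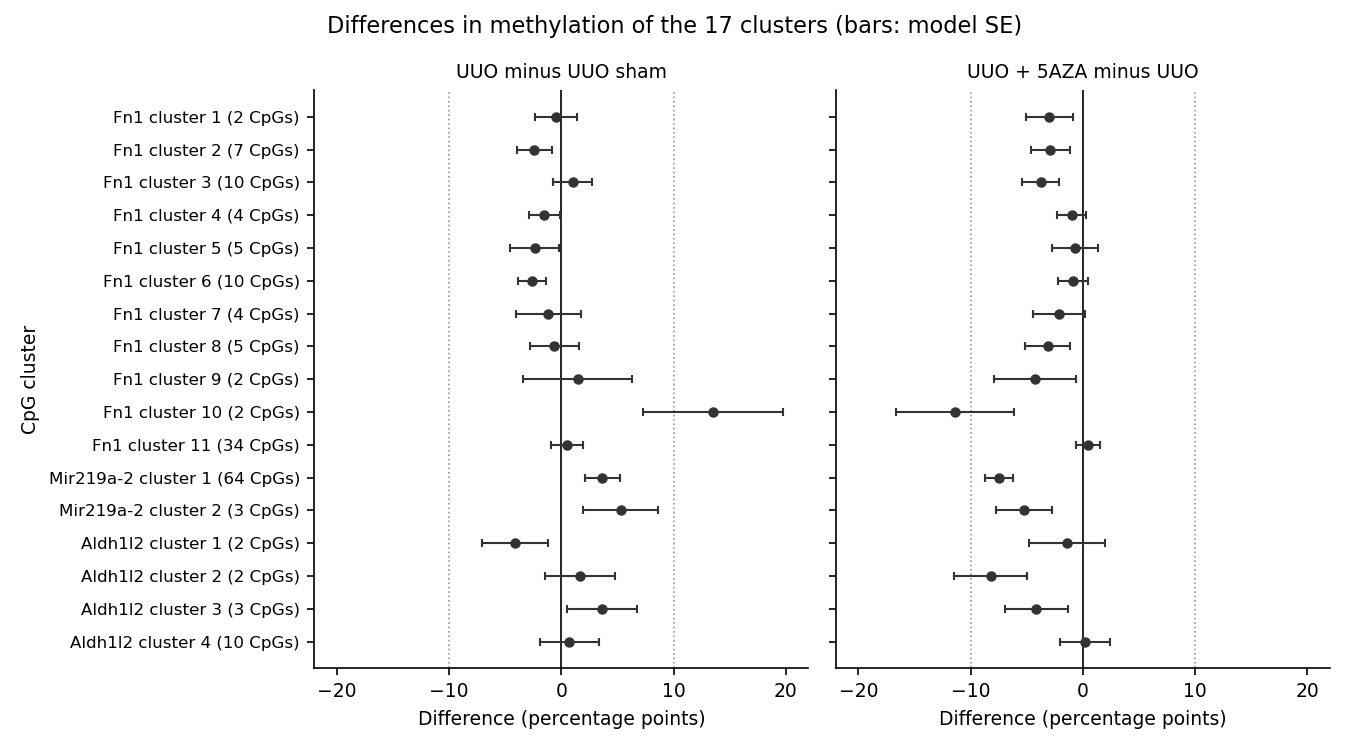
Difference in methylation (percentage points) of each of the 17 clusters, UUO minus its sham on the left and UUO with 5AZA minus UUO on the right, with bars for the SE of the model and dotted lines at 10 points. On the right 15 of the 17 points lie below 0, and Mir219a-2 cluster 1 has a narrow bar at -7.43.

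Over all 17 clusters, none was called for UUO against its sham (adjusted p below 0.05 and at least 10 points), where 0.00582% of the clusters of the genome were called. The 17 differences had a median of 0.49 points, against 0.34 for all clusters, with 9 above and 8 below 0, while 54.9% and 43.6% of all clusters were on these sides. Both UUO libraries were above the sham in 6 clusters and below it in 6, shares to be read beside 40.2% and 27.1% of all clusters. An unadjusted p below 0.05 was found for 2 of 17 (Mir219a-2 cluster 1 and Fn1 cluster 10) and for 6.50% of all clusters. In the edgeR alternative and under each other setting tried, the count of called clusters at the 3 loci was also 0 for UUO against its sham.

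For 5AZA against UUO, again 0 of 17 were called, with 0.109% of all clusters called. The differences were below 0 in 15 of 17 with a median of -2.97, while 79.4% of all clusters were below 0 and their median was -2.80. Both 5AZA libraries were below both UUO libraries in 7 of 17 clusters, and in 47.5% of all clusters. The median and the share below 0 at the 3 loci were thus near those of the genome. An unadjusted p below 0.05 (limma-moderated) was found for 3 of 17, Mir219a-2 cluster 1, Aldh1l2 cluster 2 and Fn1 cluster 3, and for 20.7% of all clusters. The comparison shares its UUO libraries with the one above, so values that are high in UUO enter both.

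For 5AZA-treated UUO against the UUO sham, 0 of 17 were called and 0.000832% of all clusters. The median difference was -3.09 points, against -2.20 for all clusters, and 13 of 17 were below 0, as were 72.9% of all clusters. An unadjusted p below 0.05 was found for 3 of 17, and for 10.5% of all clusters. For ischemia, 0 of 17 passed the adjusted p of 0.01 and 25 points of Fisher's exact test at either time, where 0.0258% of all clusters passed at 1 week and 0.0250% at 1 month. The medians were -0.44 points at 1 week and 0.49 at 1 month, against -0.56 and -0.14 for all clusters. Unadjusted p-values below 0.05 in Fisher's exact test were found for 3 and 2 of the 17 clusters, and for 8.49% and 9.29% of all clusters.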

How the data were processed

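The deposited tables give, for each CpG, a count of reads and a count of methylated reads, made by the authors per library and not normalized, and the methylated fraction, also deposited, in which the authors' rounding left it within 0.0005 of the ratio of both counts. The submitters' processing notes name Bowtie and mm9; which caller and filters were used is not given in the sources used here. Positions were read as BED intervals, counted from 0, and are printed counted from 1.

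Clusters and tests cover the whole genome. The 8 libraries entered a quasi-binomial logistic model with a mean for each of the 6 groups (R 4.3.3). Its dispersion was moderated with limma 3.58.1 and held at 1 or more, and a two-sided F test was adjusted by Benjamini-Hochberg over 120200 clusters. The pairs alone give the spread (2 residual and 8.63 prior degrees of freedom). The prior used clusters with at least 5 expected methylated and 5 unmethylated reads, a choice made after a test on simulated data. Group means weight libraries equally and the test weights them by reads, so both can differ in sign. Ischemia libraries were compared by two-sided Fisher's exact test. A position was an edge where depth changed by over 10% to a neighbour within 250 bp with at least 40 reads, or where such a neighbour was missing on a side. Intervals cover no more than counting error and treat every read at every CpG as separate. Reads that cover several CpGs, and copies made by PCR, which cannot be recognised, make them too narrow. The limit for a count of 0 is 3 reads.

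The loci, clusters and lists were chosen with earlier results of these data known. Described clusters are the up to 6 with the most CpGs, of 3 or more, at each locus. No mm9 annotation was used, so exons, introns and promoters were not assigned, and the other genes of the pathway were not analysed here. Alternatives were other read minimums and cluster rules, edges left out, edgeR 4.0.16, limma on log2 ratios (pseudocount 1), left-out libraries, a replicate block and joined shams. Python 3.11.15, numpy 2.4.6, pandas 2.3.3 and scipy 1.17.1 were used.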

Additional observations from a re-analysis of the deposited data

Results flagged for a closer look

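In 4 of the 17 clusters both UUO libraries lay on the opposite side of their sham from both ischemia libraries, as in 22.2% of the clusters of the genome (23.5% at the 3 loci). The difference between the injuries was not tested, and none of the 4 clusters passed the test in either injury. In Fn1 cluster 2 the UUO libraries were -1.96 and -2.84 points from their sham and the ischemia libraries 2.03 (1 week) and 3.37 (1 month) points from theirs, a difference of -5.10 between the mean effects. In Fn1 cluster 8 the UUO values were -0.14 and -1.13 and the ischemia values 1.78 and 2.67, a difference of -2.86. In Aldh1l2 cluster 3 UUO was at 1.15 and 6.05 and ischemia at -1.22 and -2.01, a difference of 5.22. In Aldh1l2 cluster 4 UUO was at 0.37 and 1.06 and ischemia at -0.44 and -1.39, a difference of 1.63. Both libraries of each injury share 1 sham, so a shift in that sham moves both in the same direction.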

How the results depend on the processing

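The count of called clusters at the 3 loci was 0 in each of the 5 comparisons and under every alternative run. Of 750 recomputed differences of the described clusters 32 changed sign, none of them at Mir219a-2 cluster 1, whose difference ranged from 1.95 to 6.27 points for UUO against sham, from -9.14 to -5.72 for 5AZA against UUO, from -5.01 to -1.43 for 5AZA against sham, from 0.66 (summed shams) to 5.82 for 1 week of ischemia, and from 2.84 to 9.86 for 1 month. Its lowest UUO difference, 1.95, came without UUO replicate 2, and 5.37 without UUO replicate 1. With the replicate number as a block, its 5AZA difference had an adjusted p of 0.000906 (limma-moderated) and 2638 clusters of the genome were called against 131 without it. The numbers pair nothing in the labels, and the replicate differences of the UUO and 5AZA pairs correlated at 0.084 over 64300 clusters, so the block is not shown to be a pairing.

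Sign changes were as follows, against the values in the report. Mir219a-2 cluster 2 turned to -0.18 for UUO against sham in windows of 1000 bp. For 5AZA against sham, where it was 0.08, it turned to -0.19 with equal weight per position, -1.21 in windows, -0.21 to 0.37 without a 5AZA replicate and -2.07 with joined shams, and for 1 week of ischemia it turned from 0.21 to -0.95 with equal weight. Fn1 cluster 11 ranged from -0.46 to 1.44 without a UUO replicate both for UUO against sham and for 5AZA against UUO, turned to -0.21 without 5AZA replicate 1 (5AZA against UUO), to 0.08 with equal weight and 0.70 without edges at 1 week, and to -0.26 with equal weight at 1 month. Fn1 cluster 6 ranged from -2.37 to 0.61 without a UUO replicate (5AZA against UUO) and turned to 0.18 in windows at 1 week, and Fn1 cluster 3 ranged from -5.57 to 0.05 without a 5AZA replicate (5AZA against sham). Fn1 cluster 8 turned to 0.50 with joined shams (UUO against sham) and -2.0 without edges at 1 month. Fn1 cluster 5 ranged from -6.10 to 1.32 without a UUO replicate (UUO against sham), and from -4.42 to 3.01 without a UUO or 5AZA replicate (5AZA against UUO, 0.36 without 5AZA replicate 2), and turned to 0.40 in windows (5AZA against UUO), and to -0.41 without edges and -0.68 with summed shams at 1 week. Aldh1l2 cluster 4 turned to -1.83 with gaps over 200 bp (UUO against sham), to -1.26 with equal weight and, leaving out a replicate, to between -0.24 and 0.56 (-0.18 without UUO replicate 1; 5AZA against UUO), and to -1.50 with gaps over 200 bp (5AZA against sham). Aldh1l2 cluster 3 turned to 1.66 without edges and ranged from -1.46 to 0.40 without a 5AZA replicate (5AZA against sham), and to 4.03 without edges and 0.66 with summed shams at 1 week. The cause was not tested.

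Calls over the genome depended on the setting. They ranged from 0 to 172 around 7 for UUO against sham, from 0 to 2638 around 131 for 5AZA against UUO, and from 0 to 62 around 1 for 5AZA against sham, with 0 for all 3 by limma on log2 ratios and with a prior from all clusters, an alternative added after seeing the data together with single CpG positions. edgeR gave 1397 for 5AZA against UUO. For ischemia the counts ranged from 0 to 46 around 31 at 1 week and from 0 to 89 around 30 at 1 month, with 0 by the quasi-binomial model. Depth limits the small clusters most: 7 of the 14 highly methylated clusters had a library under 100 reads.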
